A study of Mus musculus with 4 samples.

Results

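Interferon-stimulated genes were examined by RNA sequencing in type 1 innate lymphoid cells (ILC1s) of the mouse, a lineage that stays in its tissue and is akin to natural killer (NK) cells. The group comprises 40 genes taken by symbol from a deposited table of 40481 genes, and every symbol matched 1 Ensembl gene. Of these, 35 are mainly known as targets of type I interferon, and 5 are guanylate-binding proteins (GBPs) and immunity-related GTPases (IRGs) that respond most to interferon gamma, the type II interferon. The 35 genes are called the type I group below and the 5 genes the type II group, although many members answer to both cytokines. The comparison was between 2 control libraries of genotype Inpp4b flox/flox and 2 knockout-labelled libraries, in which the same floxed alleles were combined with Ncr1-iCre. Cre in these mice follows Ncr1, the gene of the receptor NKp46, so deletion is directed to NKp46-expressing cells. Only the knockout-labelled libraries carry Cre, so its presence and the loss of Inpp4b cannot be told apart. All libraries were made from ILC1s selected by CD49a. Liver is named as the source of control library 1, and the sources used here do not give the age or number of mice per library.

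Type I interferons signal through the receptor chains IFNAR1 and IFNAR2 and the kinases JAK1 and TYK2, and activate a complex that holds STAT2 and IRF9. This complex binds the interferon-stimulated response element (ISRE). Interferon gamma signals through IFNGR1 and IFNGR2 with JAK1 and JAK2, and acts on genes through the gamma-activated site (GAS). ILC1s are themselves a source of interferon gamma, and they carry the receptors for both kinds of interferon.

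Library totals lay between 42380840 and 54878210 counts. Libraries of a group differed beyond sampling noise, so each library was counted as a sample. Nothing in the labels says that they came from separate animals, and p-values then reflect no more than the variation among these 4 libraries, which may be technical. Inpp4b was at 78.7 and 106.5 CPM (counts scaled to library size with TMM factors) in controls, against 142.5 and 86.0 CPM with the knockout label, so the targeted transcript was not lower there (log2 change 0.30, SE 0.28, adjusted p = 0.828 in edgeR). Whole-gene counts do not show whether part of the gene was deleted. All 15 ILC1 markers had counts in every library, with a summed level of 12104 and 13060 CPM in controls, against 12350 and 13056 CPM with the knockout label. Of these 15, 4 were higher and 4 were lower without overlap. Ncr1 was at 1672 and 1772 CPM against 1202 and 1077 CPM, and Ly6a at 4.64 and 8.02 CPM against 24.13 and 36.1 CPM. DESeq2 called Ncr1 lower (adjusted p = 0.0294) and Ly6a higher (adjusted p = 1.63e-06), and edgeR called 0 of the 15. Markers of other cells were present as well. The summed level of 15 myeloid markers was 734.3 and 822.8 CPM in controls, against 1636 and 1628 CPM with the knockout label, and 13 of the 15 were higher without overlap between the groups. Itgax, at 479.6 and 492.3 CPM against 510.2 and 538.3 CPM, made up much of the control sums. Lyz2 differed more, at 43.15 and 71.46 CPM against 626.0 and 582.5 CPM. Fcgr1 was the only myeloid marker with a library at 0, in control library 2. For 14 T cell markers the summed level was 2584 and 2579 CPM against 3081 and 4161 CPM, with 8 higher and 1 lower without overlap. Cd3g, at 1469 and 1255 CPM against 1623 and 1930 CPM, made up much of this sum. Trac was at 7.31 and 5.67 CPM against 85.09 and 200.9 CPM, and edgeR called it higher (adjusted p = 0.0489). Cd3e was at 26.49 and 15.13 CPM against 152.5 and 371.0 CPM. For 13 NK cell markers the summed level was 506.1 and 585.7 CPM against 895.0 and 1597 CPM, with 9 higher and 1 lower without overlap and Cma1 at 0 in 3 libraries. Prf1, at 398.2 and 465.5 CPM against 512.1 and 631.2 CPM, made up most of the control sums. Klra7 (27.82 and 37.53 CPM against 250.8 and 520.6 CPM) and Klra1 (3.74 and 5.97 CPM against 18.99 and 327.5 CPM) made up much of the rise. The lower marker was Itga2, at 7.95 and 8.28 CPM against 5.79 and 7.02 CPM. For 10 dendritic cell markers, which include the member Bst2 and Irf8, the summed level was 184.5 and 204.1 CPM against 422.7 and 479.6 CPM, with Flt3 and Clec9a at 0 in some libraries. H2-Ab1, at 40.67 and 42.93 CPM against 236.6 and 273.2 CPM, made up most of this rise. Without overlap 5 were higher and 3 lower, the lower ones being Zbtb46 (9.28 and 12.3 CPM against 4.56 and 4.64 CPM), Flt3 and Clec9a. Other marker lists overlapped between the groups. The summed level was 715.9 and 1049 CPM against 658.4 and 811.8 CPM for 8 B cell markers. It was 210.2 and 133.8 CPM against 200.4 and 219.2 CPM for 14 hepatocyte markers. For 11 endothelial and stellate cell markers it was 66.65 and 94.02 CPM against 86.83 and 96.92 CPM. In bulk samples, fewer cells of a type and less RNA per cell cannot be told apart.

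The interferon-stimulated genes had no common direction in the knockout-labelled libraries. All 40 members passed the filter on low counts, and edgeR called 0 of them higher and 0 lower, at an adjusted p under 0.05, where 0.141% of 14863 genes were called higher and 0.0135% lower. By unadjusted p under 0.05, 6 members differed, beside 9.65% of all genes, with 2 higher (5% of members, against 4.48% of all genes) and 4 lower (10% of members, against 5.17%). DESeq2 called 1 member higher, Ifi27l2a, and 0 lower, beside 1.85% and 1.36% of all genes. The median log2 fold change (knockout-labelled libraries over control) was -0.05 over the members and -0.01 over all genes. For 30 of the 40 members (75%) the change was within 0.5 of zero, as it was for 66.4% of all genes. The lowest edgeR adjusted p of a member was 0.166, that of Ifi27l2a. Leaving out 1 library moved the type I median between -0.20 and 0.07, and the type II median between -0.03 and 0.29.

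**Figure D1:**
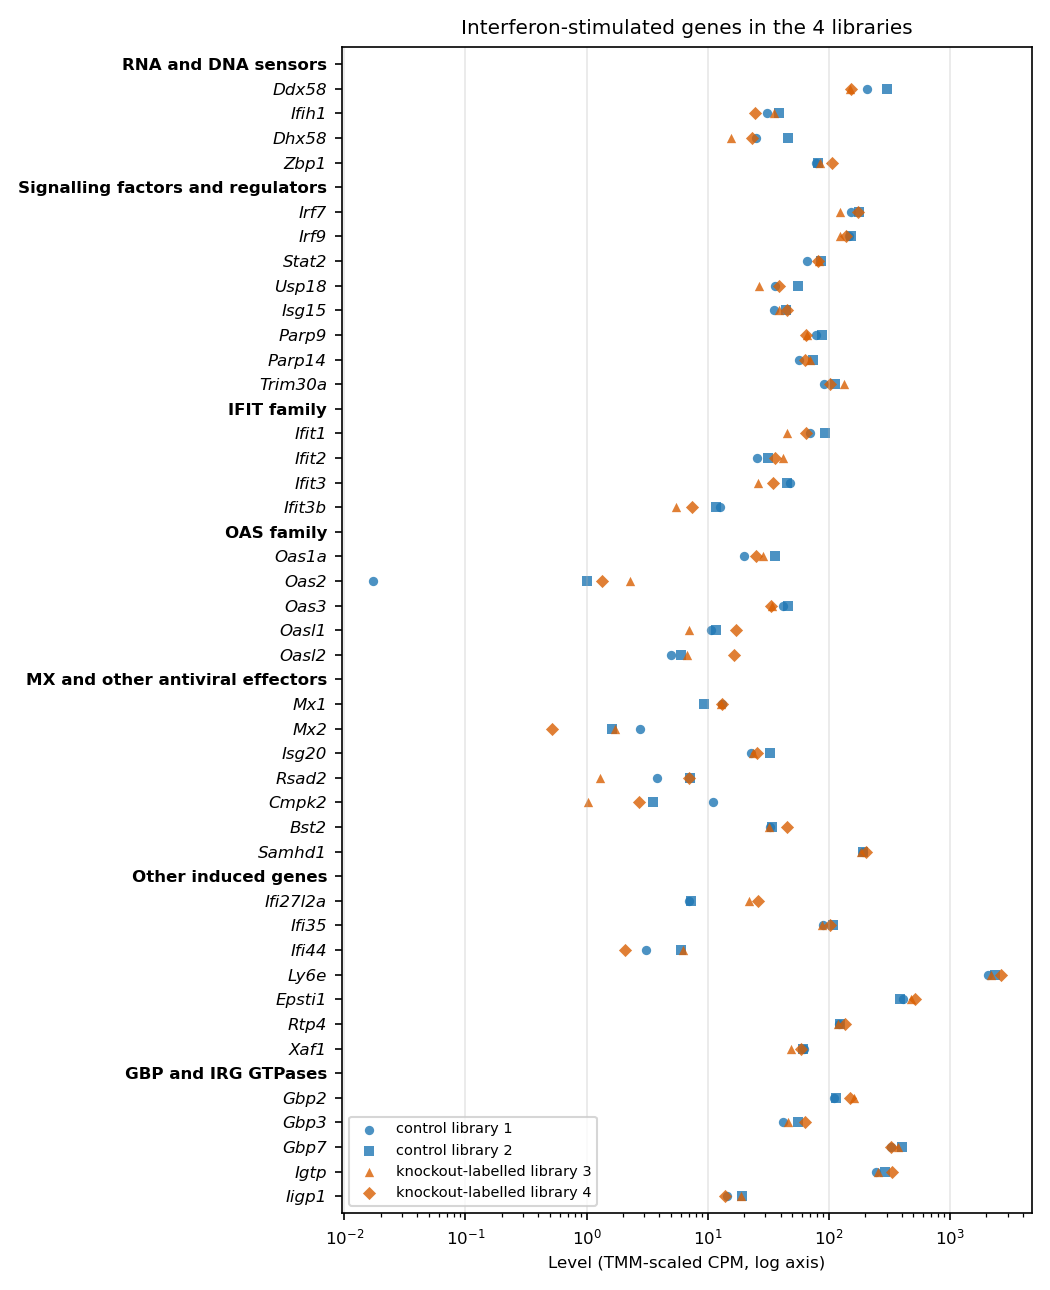
Level of each of the 40 interferon-stimulated genes in each library, as TMM-scaled CPM on a log axis, grouped by role. Circles and squares are the 2 control libraries, and triangles and diamonds the 2 knockout-labelled libraries. For 23 of the 40 genes the groups overlap. Both orange symbols lie to the right of both blue ones for 7 genes (17.5%, beside 19.5% of all genes), Ifi27l2a among them.

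Both knockout-labelled libraries lay on the same side of the control mean for 23 of the 40 members (57.5%), on the log2(CPM + 0.1) scale, beside 62.8% of all genes. Of these 23 members, 10 were above the control mean in both libraries and 13 below, beside 30.8% and 32.0% of all genes. For the other 17 members the knockout-labelled libraries fell on opposite sides. The groups did not overlap for 17 members, beside 40.2% of all genes. Of these, 7 were higher (17.5% of members, against 19.5% of all genes) and 10 lower (25% of members, against 20.8%). These shares lie near those of all genes, and nothing about the members is read from them. The knockout-labelled libraries also differed from each other. Library 4 was above library 3 for 26 of the 40 members (49.2% of all genes), with a median difference of 0.18 on the log2 scale. Control library 2 was above control library 1 for 32 of 40 (53.4% of all genes), with a median difference of 0.25.

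Per length of exon, the most abundant members were Ly6e, Epsti1, Igtp, Gbp7 and Rtp4. Ly6e, which encodes a surface protein of the Ly6 family, was at 542.7 and 623.2 FPKM (CPM per kilobase of exon) in controls and at 576.0 and 693.2 FPKM in the knockout-labelled libraries. Epsti1, a gene induced by both interferons, was at 177.0 and 165.8 FPKM in controls, against 203.9 and 220.2 FPKM with the knockout label. Its groups did not overlap, but the log2 fold change of 0.31 (SE 0.13) did not pass the test (edgeR adjusted p = 0.538). Igtp, an immunity-related GTPase gene, was at 121.2 and 142.8 FPKM against 127.0 and 163.3 FPKM. Gbp7 was at 57.6 and 71.9 FPKM against 66.9 and 57.8 FPKM, and Rtp4, a chaperone gene for membrane receptors, at 57.0 and 58.2 FPKM against 55.7 and 63.6 FPKM. For Ly6e, Igtp, Gbp7 and Rtp4 the groups overlapped. At the other end of the range were Oas2 and Mx2, with mean levels over the 4 libraries of 0.263 and 0.459 FPKM.

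Among the sensors of viral nucleic acid, Ddx58 had the smallest p. Ddx58 (ENSMUSG00000040296, mm10 chromosome 4, 40203773 to 40239828, minus strand) encodes RIG-I, a cytosolic sensor of RNA with a free triphosphate end. It was at 206.6 and 305.2 CPM in controls, against 151.0 and 153.7 CPM with the knockout label. Both of the latter lay below both controls, but the controls differed from each other by more than control library 1 differed from them (log2 change -0.75, SE 0.21, adjusted p = 0.348 in edgeR). Without control library 2 the log2 change of Ddx58 was -0.44. Dhx58, which encodes LGP2, a regulator of the RNA sensors, was at 25.2 and 46.1 CPM against 15.5 and 23.1 CPM. Its groups did not overlap either, and its log2 fold change of -0.89 did not pass the test (edgeR adjusted p = 0.523) and was -0.38 without control library 2. Ifih1, the gene of the long RNA sensor MDA5, was at 31.0 and 39.2 CPM against 35.4 and 24.7 CPM. Zbp1, a sensor of Z-form nucleic acid, was at 79.1 and 80.9 CPM against 85.4 and 106.8 CPM. Ddx58 and Dhx58 were thus low in both knockout-labelled libraries, Zbp1 was high in both, and Ifih1 overlapped.

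Members that carry or restrain the interferon signal differed little. Stat2 and Irf9 encode parts of the complex that binds the ISRE. Stat2 was at 66.1 and 86.8 CPM in controls, against 82.4 and 81.7 CPM with the knockout label. Irf9 was at 146.4 and 151.5 CPM against 124.7 and 139.4 CPM, without overlap but with a log2 fold change of only -0.17 (95% interval -0.53 to 0.18). Irf7, the factor that amplifies interferon transcription, was at 153.9 and 177.4 CPM against 123.5 and 174.7 CPM. The control and knockout-labelled ranges of Irf7 and Stat2 overlapped. Usp18, which removes ISG15 from proteins and blocks the type I receptor, was at 36.0 and 55.4 CPM against 26.4 and 38.8 CPM, and its log2 fold change of -0.49 was -0.14 without control library 2. Isg15, a ubiquitin-like modifier, was at 35.3 and 44.4 CPM against 38.7 and 45.6 CPM, with overlapping groups and a 95% interval of the log2 fold change from -0.46 to 0.62. Parp9, an ADP-ribosyltransferase gene, was at 78.7 and 88.0 CPM against 66.6 and 64.6 CPM without overlap, and its partner Parp14 overlapped at 56.3 and 74.3 CPM against 69.4 and 64.2 CPM. Of the 8 members with such roles (the other being Trim30a), 0 had an unadjusted p under 0.05, and edgeR adjusted p-values ranged from 0.575 to 0.991.

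The IFIT genes, which encode proteins that bind viral RNA, form a cluster on chromosome 19 and were split. The cluster runs from the start of Ifit2 at 34550694 to the end of Ifit1 at 34650009 in mm10, and all 4 members lie on the plus strand. Ifit3 was at 47.8 and 45.4 CPM in controls, against 26.2 and 34.5 CPM with the knockout label (log2 change -0.62, SE 0.23, adjusted p = 0.471 in edgeR). Ifit3b was at 12.7 and 11.7 CPM against 5.51 and 7.46 CPM (log2 change -0.91, SE 0.35, adjusted p = 0.487 in edgeR). Ifit1 was at 69.6 and 93.8 CPM against 44.8 and 65.5 CPM (log2 change -0.57, adjusted p = 0.549 in edgeR), and its log2 change was -0.33 without control library 2, -0.34 without library 3 and -0.89 without library 4. In all 3 genes both knockout-labelled libraries were below both controls, and library 3 was the lower of them. Ifit2 lay the other way, at 25.3 and 31.5 CPM against 41.5 and 35.7 CPM (log2 change 0.44, adjusted p = 0.625 in edgeR), again without overlap, and with a log2 change of 0.29 without control library 1. None of the 4 passed the test, and the difference between Ifit2 and its neighbours was not tested.

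Ifit3 and Ifit3b are near-identical copies, so their separate values are uncertain. Of the 50-base words in the transcripts of Ifit3, 51.2% also occur in another gene, and of those of Ifit3b 45.0%, with each sharing most with the other. How reads that match both were counted was not given in the sources used here. Their summed level was 60.5 and 57.1 CPM in controls, against 31.7 and 41.98 CPM with the knockout label. This sum does not depend on how counted reads were divided between them, but it lacks any shared reads that were left out.

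The sequences upstream of the IFIT genes are shown because the family split in direction. For a gene with several annotated starts, the start nearest its annotated 5′ end was used. RefSeq windows of 250 bases before to 50 bases after a start (GRCm38.p6, the mm10 assembly) were available for 28 of the 40 members. Each was searched on both strands for the core of the ISRE, written as 2 copies of GAAA with any 2 bases between them, and for TTCNNNGAA, the GAS. Matches of these motifs may overlap. The 250 bases before the start of each IFIT gene are printed 5′ to 3′ on the gene's strand, with matches in capitals.
Ifit1 (chr19:34640639-34640888): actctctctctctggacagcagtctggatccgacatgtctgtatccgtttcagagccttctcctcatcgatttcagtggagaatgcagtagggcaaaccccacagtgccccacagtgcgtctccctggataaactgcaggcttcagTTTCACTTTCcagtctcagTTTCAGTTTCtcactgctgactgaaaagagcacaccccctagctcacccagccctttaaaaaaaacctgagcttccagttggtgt
Ifit3 (chr19:34583279-34583528): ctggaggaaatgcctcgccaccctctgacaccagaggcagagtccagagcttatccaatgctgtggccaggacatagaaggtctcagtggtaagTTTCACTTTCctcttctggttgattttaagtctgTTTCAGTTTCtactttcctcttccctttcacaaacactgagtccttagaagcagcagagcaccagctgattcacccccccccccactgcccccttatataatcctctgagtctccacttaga
Ifit3b (chr19:34607707-34607956): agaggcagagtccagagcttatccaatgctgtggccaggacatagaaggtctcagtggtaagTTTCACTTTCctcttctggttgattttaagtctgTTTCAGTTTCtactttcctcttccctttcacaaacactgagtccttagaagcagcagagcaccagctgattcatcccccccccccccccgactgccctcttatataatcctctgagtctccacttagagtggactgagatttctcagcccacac
Ifit2 (chr19:34550444-34550693): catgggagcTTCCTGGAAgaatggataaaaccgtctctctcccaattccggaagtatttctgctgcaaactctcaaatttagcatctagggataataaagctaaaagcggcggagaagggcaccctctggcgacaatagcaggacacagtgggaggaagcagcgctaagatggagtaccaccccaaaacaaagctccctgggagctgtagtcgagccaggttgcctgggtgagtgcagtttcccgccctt
Ifit1, Ifit3 and Ifit3b each held 2 ISRE matches, and Ifit2 held a GAS match and no ISRE match in this window. The matches of Ifit1 began 104 and 85 bases before the start, and those of Ifit3 at 156 and 122 bases. Ifit3 and Ifit3b were identical at 216 of 250 aligned bases (86.4%), and Ifit3 and Ifit2 at 121 (48.4%). Ifit2 had 2 annotated starts, of which 1 is printed, and neither window held an ISRE match. Over 18693 genes with a window, 3.38% held an ISRE match and 7.93% a GAS match. The match letters are a description of these windows, which were chosen after the split was seen. A link between the letters and the direction of change was not tested. Absence of a match says only that the letters are not in the window.

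**Figure D2:**
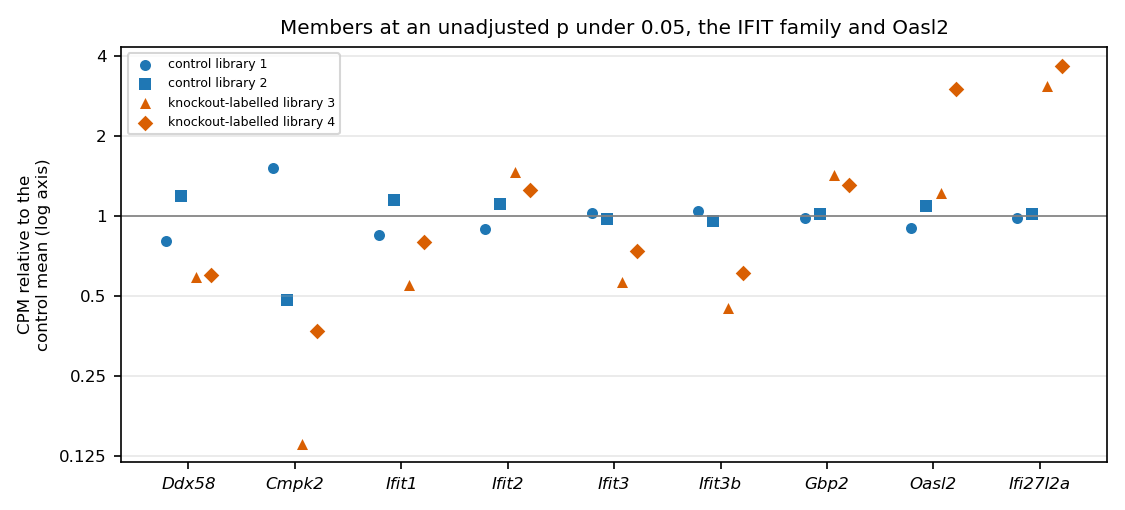
CPM of each library divided by the mean of the 2 controls, on a log axis, for the members at an unadjusted p under 0.05, the 4 IFIT genes and Oasl2. Ifit1, Ifit3 and Ifit3b lie below 1 in both knockout-labelled libraries, while Ifit2, Gbp2, Oasl2 and Ifi27l2a lie above 1 in both.

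The oligoadenylate synthetase family, some of whose members act through RNase L, had no common direction. Oas3 was at 42.2 and 46.4 CPM in controls, against 33.95 and 33.4 CPM with the knockout label (log2 change -0.40, adjusted p = 0.603 in edgeR). Oasl2 was at 4.97 and 6.01 CPM against 6.72 CPM in library 3 and 16.5 CPM in library 4 (log2 change 1.08, SE 0.50, adjusted p = 0.558 in edgeR). Without library 4 the log2 change of Oasl2 was 0.27. Oas2 had 1 and 48 counts in the controls and 99 and 70 counts with the knockout label, and its log2 fold change of 1.83 (adjusted p = 0.801 in edgeR, SE 1.49) had a 95% interval from -1.79 to 5.44. It was 0.84 without control library 1 and 6.54 without control library 2. Oasl1 was at 10.7 and 11.8 CPM against 7.003 and 17.2 CPM, so the knockout-labelled libraries lay on either side of the controls. Oas1a overlapped between the groups, and its value is uncertain, since 57.6% of its 50-base words occur in another gene, mostly Oas1g.

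Of the antiviral effectors, Cmpk2 had the largest log2 difference, with a wide spread in both groups. Cmpk2, a mitochondrial nucleotide kinase gene, lies next to Rsad2 on chromosome 12 and is often induced with it. It was at 11.1 and 3.56 CPM in controls, against 1.02 and 2.71 CPM with the knockout label (log2 change -1.97, SE 0.75, adjusted p = 0.487 in edgeR). The controls differed from each other about as much as control library 2 differed from library 3, and without control library 1 the log2 change of Cmpk2 was -0.93. Rsad2, which encodes viperin, was at 3.83 and 7.15 CPM against 1.28 and 6.996 CPM and overlapped. Mx1, a dynamin-like GTPase gene, was at 13.02 and 9.36 CPM against 12.8 and 13.3 CPM. Bst2, the gene of tetherin, was at 32.6 and 34.0 CPM against 32.2 and 44.8 CPM. Samhd1, which encodes a nucleotide hydrolase that restricts retroviruses, was at 193.1 and 192.8 CPM against 184.2 and 203.1 CPM. Its log2 fold change of 0.01 had a 95% interval from -0.33 to 0.34, and its sign depended on the scaling. Mx2, annotated in the table as a polymorphic pseudogene, and the exonuclease gene Isg20 also overlapped.

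Ifi27l2a stood apart from the other members. Ifi27l2a (ENSMUSG00000079017, mm10 chromosome 12, 103442167 to 103443680, minus strand) encodes a small interferon-induced membrane protein. It had 406 and 344 counts in the controls and 948 and 1356 counts with the knockout label. These correspond to 7.002 and 7.28 CPM against 22.1 and 26.2 CPM, with both knockout-labelled libraries about equally far above both controls. The mean was 3.38-fold higher, and the log2 fold change was 1.76 (SE 0.29, 95% interval 1.06 to 2.45), with an edgeR adjusted p of 0.166 and a DESeq2 adjusted p of 1.03e-06. It was thus called by DESeq2 and not by edgeR. Ifi35 and Ifi44 overlapped between the groups. Xaf1 did not overlap, at 62.7 and 61.3 CPM against 48.4 and 59.4 CPM (log2 change -0.20, adjusted p = 0.83 in edgeR). The summed myeloid markers also separated the groups, at 734.3 and 822.8 CPM against 1636 and 1628 CPM, and the 11 macrophage markers summed to 23.4 to 31.5 CPM against 70.7 to 73.7 CPM. Of these macrophage markers, 5 (Cd163, Mertk, Marco, Vsig4 and Timd4) had 0 counts in at least 1 library. Among the 11, 5 were higher and 1 was lower without overlap. The part of these cells in the result for Ifi27l2a was not tested.

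**Figure D3:**
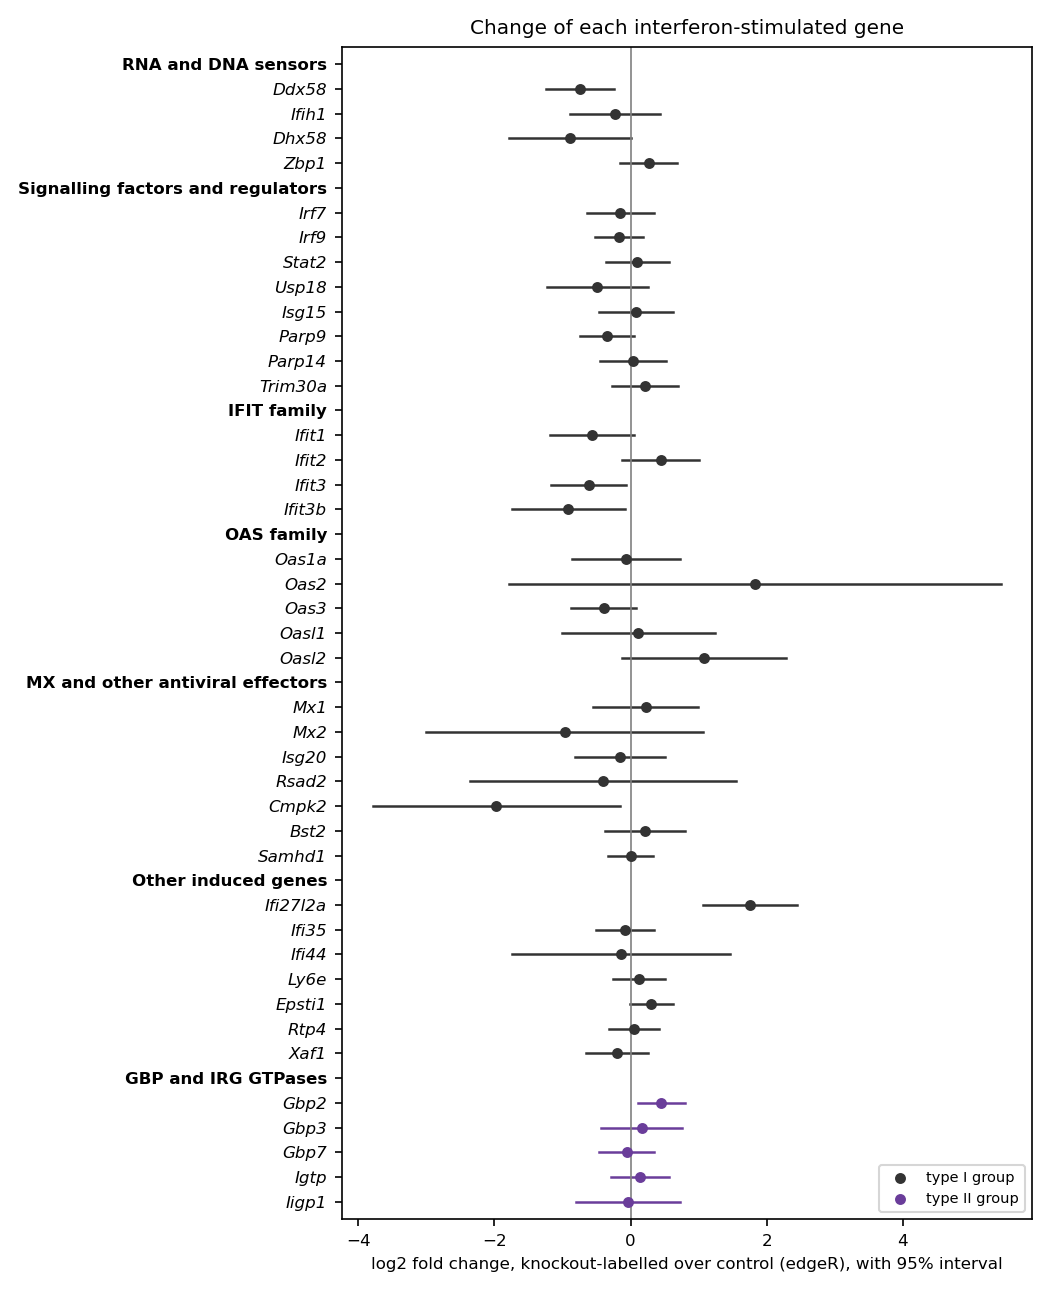
log2 fold change of each member from edgeR, knockout-labelled libraries over control, as points with 95% intervals as lines. The type I group is dark and the type II group purple, and the vertical line marks no change. The interval excludes 0 for Ifi27l2a and Gbp2 on the positive side and for Ddx58, Ifit3, Ifit3b and Cmpk2 on the negative side, before adjustment for multiple tests.

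No gene of the type II group was called by edgeR or DESeq2, and a shift of the group as a whole was not tested. Gbp2 (ENSMUSG00000028270, mm10 chromosome 3, 142620602 to 142638008, plus strand), a guanylate-binding protein gene that acts against intracellular pathogens, was at 111.2 and 115.1 CPM in controls, against 161.3 and 148.5 CPM with the knockout label. Both knockout-labelled libraries lay above both controls (log2 change 0.45, SE 0.14, adjusted p = 0.399 in edgeR). Gbp3 was at 41.9 and 56.0 CPM against 46.2 and 63.2 CPM, and Gbp7, on the same part of chromosome 3, at 323.6 and 403.5 CPM against 375.4 and 324.2 CPM. Igtp was at 245.0 and 288.9 CPM against 256.9 and 330.3 CPM, and Iigp1, another immunity-related GTPase gene, at 14.4 and 19.2 CPM against 18.9 and 13.9 CPM. The groups overlapped for all members but Gbp2, and in Gbp7 and Iigp1 the knockout-labelled libraries spanned much of the control range.

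Promoter windows were available for 4 of the 5 type II genes, and all 4 held an ISRE match. They are shown for 3 of them to set the letters of the type II group beside those of the IFIT genes.
Gbp2 (chr3:142620413-142620662): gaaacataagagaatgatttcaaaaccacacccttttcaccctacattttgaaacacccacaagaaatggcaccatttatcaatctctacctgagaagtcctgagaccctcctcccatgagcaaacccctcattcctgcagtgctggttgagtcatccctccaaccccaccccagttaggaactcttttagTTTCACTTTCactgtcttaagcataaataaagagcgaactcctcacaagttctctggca
Gbp7 (chr3:142530086-142530335): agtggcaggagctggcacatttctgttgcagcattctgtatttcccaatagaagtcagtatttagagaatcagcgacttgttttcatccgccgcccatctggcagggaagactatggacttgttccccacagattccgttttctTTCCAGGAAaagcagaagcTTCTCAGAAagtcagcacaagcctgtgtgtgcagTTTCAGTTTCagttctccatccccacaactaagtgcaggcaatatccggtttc
Igtp (chr11:58199306-58199555): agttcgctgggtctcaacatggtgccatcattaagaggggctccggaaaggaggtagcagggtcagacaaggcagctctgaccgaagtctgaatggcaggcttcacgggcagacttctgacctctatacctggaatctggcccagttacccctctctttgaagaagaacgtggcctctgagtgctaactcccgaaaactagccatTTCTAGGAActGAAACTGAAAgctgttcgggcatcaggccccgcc
Gbp7 held 2 GAS matches beside its ISRE match, Igtp held 1 of each, and Gbp2 held an ISRE match 59 bases before the start. Of the 24 windows of the type I group, 12 held an ISRE match (50%) and 6 a GAS match (25%). Over 18693 genes with a window, 3.38% held an ISRE match and 7.93% a GAS match. ISRE letters were thus found in windows of both groups of members.

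The difference between type I and type II members was small, and it was not tested, since the genes were chosen with results known. The median log2 fold change was -0.07 in the type I group and 0.14 in the type II group, a difference of 0.21. The mean log2(CPM + 0.1) over the type I group was 5.06 and 5.33 in controls and 5.01 and 5.21 in the knockout-labelled libraries, and over the type II group it was 6.46 and 6.75 against 6.74 and 6.74. Each of these levels overlapped between the groups of libraries. The difference between the 2 means within a library was 1.41 and 1.43 in controls and 1.72 and 1.54 in the knockout-labelled libraries, which did not overlap. It averaged 1.42 ± 0.01 in controls and 1.63 ± 0.13 in the knockout-labelled libraries (SD, n = 2 each). The small control SD depends in part on Oas2, with 1 count in control library 1 and 48 in control library 2. The difference without Oas2 was not computed. The type II median became -0.03 without control library 1, and 0.29 without knockout-labelled library 3, while the type I median became 0.07 without control library 2. The difference of medians was 0.12 without knockout-labelled library 4.

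Further targets of each interferon that are not members did not show a contrast that separated the groups. Of 43 tested genes listed as further type I targets, 3 higher genes (6.98%) and 3 lower genes (6.98%) had an unadjusted p under 0.05, beside 4.48% and 5.17% of all genes, and the median log2 fold change was -0.04. The groups did not overlap for 14 that were higher and 11 that were lower, 58.1% in all, beside 40.2% of all genes. Of 17 tested genes listed as further interferon gamma targets, 1 was higher (5.88%) and 0 were lower by unadjusted p, with a median of 0.10, and 7 higher and 4 lower did not overlap (64.7%). edgeR called 0 genes in either list, and DESeq2 called Slfn1, Ms4a4c and Cxcl9 higher, where it called 1.85% of all genes higher. The difference between the mean levels of the 2 lists was 1.11 and 1.16 in controls and 1.10 and 1.46 in the knockout-labelled libraries, so library 3 lay below both controls and library 4 above both. Cxcl9, a chemokine gene induced by interferon gamma, had 0.19 and 0.55 CPM in controls, 1.84 CPM in library 3 and 12.3 CPM in library 4 (log2 change 4.26, SE 1.09, adjusted p = 0.322 in edgeR). Without library 4 the log2 change of Cxcl9 was 2.29. Slfn1, a Schlafen family gene, was at 6.36 and 6.39 CPM against 17.3 and 22.8 CPM (log2 change 1.65, adjusted p = 0.223 in edgeR), and Ms4a4c was at 15.5 and 19.9 CPM against 36.1 and 36.9 CPM (log2 change 1.05, adjusted p = 0.29 in edgeR). The summed T cell markers were also higher in library 4 (4161 CPM) than in library 3 (3081 CPM) and in the controls (2579 to 2584 CPM). The summed myeloid markers (734.3 and 822.8 CPM against 1636 and 1628 CPM) separated the groups too. So did the dendritic cell markers (184.5 and 204.1 CPM against 422.7 and 479.6 CPM), with 5 higher and 3 lower without overlap. Most of that rise was H2-Ab1 alone (40.67 and 42.93 CPM against 236.6 and 273.2 CPM). The part of T, myeloid and dendritic cells in these values was not tested. Of the T cell markers 8 were higher and 1 was lower without overlap, and Cd5 had 0 counts in control library 1 and in library 3.

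Other named targets were found on both sides. Nlrc5 and Ciita encode activators of MHC genes. Nlrc5 was at 118.9 and 171.3 CPM against 81.9 and 116.5 CPM (log2 fold change -0.55, but -0.26 without control library 2, -0.33 without library 3 and -0.85 without library 4), while Ciita was at 2.85 and 3.64 CPM against 6.68 and 5.47 CPM. Psmb8, an immunoproteasome subunit gene, was at 455.6 and 418.9 CPM against 515.3 and 539.1 CPM. Trim25, a ubiquitin ligase gene of the RIG-I pathway, was at 37.9 and 38.8 CPM against 26.3 and 22.5 CPM (log2 fold change -0.65, SE 0.22). Ifi205 was at 0.914 and 1.74 CPM against 6.21 and 3.23 CPM (log2 fold change 1.83, SE 0.64). The further lower type I targets at an unadjusted p under 0.05, named after their values were seen, were Uba7 (log2 fold change -0.52, SE 0.18) and Tdrd7 (log2 fold change -0.83, SE 0.32). For Nlrc5, Ciita, Psmb8, Trim25 and Ifi205 edgeR adjusted p-values ranged from 0.43 for Trim25 to 0.586 for Psmb8.

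**Figure D4:**
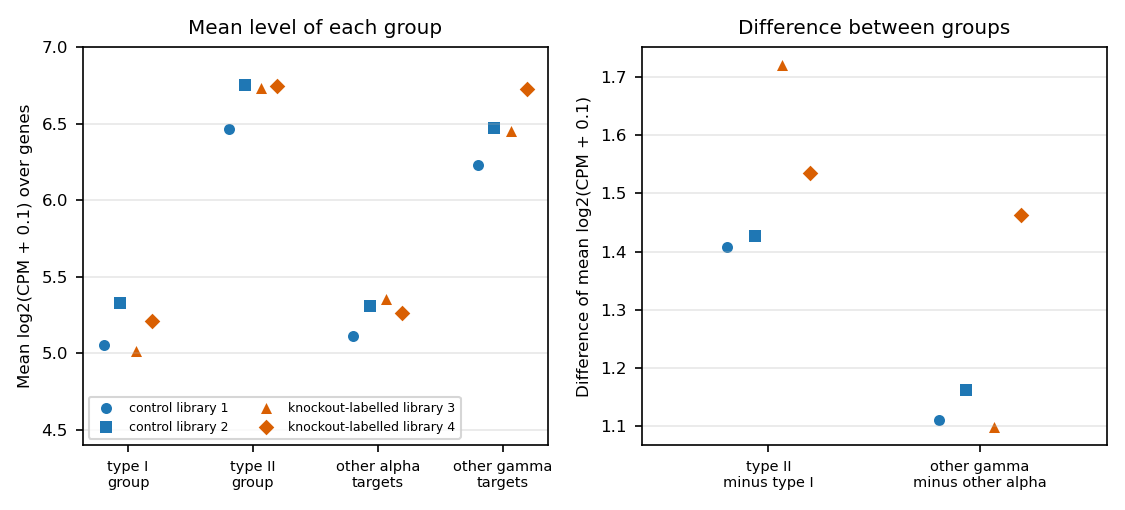
Left, mean log2(CPM + 0.1) over the genes of each group in each library, for the 35 type I and 5 type II members and for the further type I (alpha) and interferon gamma targets. Right, the difference between the 2 means within each library. The difference is 1.41 and 1.43 in controls and 1.72 and 1.54 in the knockout-labelled libraries for the members, while for the other targets library 3 (1.10) lies below the controls.

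Upstream of the targets, Ifng transcripts were higher in both knockout-labelled libraries, and those of the 5 type I interferon genes looked up were not detected. Ifng was at 97.8 and 75.8 CPM in controls, against 142.7 and 171.4 CPM with the knockout label, without overlap (log2 fold change 0.86, SE 0.19). It was called by DESeq2 (adjusted p = 0.0103) but not by edgeR (adjusted p = 0.277). The summed NK cell markers (506.1 and 585.7 CPM against 895.0 and 1597 CPM) and T cell markers (2584 and 2579 CPM against 3081 and 4161 CPM) were also highest in library 4, as Ifng was, and their part in the Ifng result was not tested. Klra7 and Klra1 made up much of the rise of the NK sum, and of the 13 markers 9 were higher and 1 was lower without overlap. Ifnb1, Ifna2, Ifna4, Ifnk and Ifne had 0 counts in all 4 libraries, which allows a level of up to 0.0517 to 0.0698 CPM at 3 counts per library, for counting error only.

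Receptor genes of both interferons were present. Ifngr1 was at 616.6 and 800.8 CPM in controls, against 798.0 and 885.8 CPM with the knockout label. Ifngr2, the second chain of the interferon gamma receptor, was at 1.38 and 1.19 CPM against 3.89 and 5.97 CPM (log2 change 1.94, SE 0.55, adjusted p = 0.361 in edgeR, DESeq2 adjusted p = 0.0347). Ifnar1 was at 143.2 and 153.3 CPM against 150.6 and 117.8 CPM, and Ifnar2 at 93.2 and 35.2 CPM against 57.8 and 38.6 CPM, both with overlap. The log2 fold change of Ifnar2 was -0.41, and 0.45 without control library 1. Per length of exon, Ifngr1 was at 216.6 to 311.1 FPKM over the 4 libraries and Ifngr2 at 0.315 to 1.585 FPKM. Ifngr2 thus showed the clearest difference among the receptors, in libraries where the summed myeloid markers also separated the groups, and their part in it was not tested.

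The kinases and factors downstream of the receptors were split in direction. Tyk2, the kinase of the type I receptor, was at 104.9 and 173.4 CPM in controls, against 91.6 and 86.8 CPM with the knockout label (log2 change -0.64, SE 0.25, adjusted p = 0.494 in edgeR). Its log2 change was -0.23 without control library 2, and without a filter on low counts its edgeR adjusted p was 0.0499. Jak2, the kinase of IFNGR2, was at 64.1 and 85.3 CPM against 53.9 and 52.1 CPM (log2 change -0.49, SE 0.20, adjusted p = 0.51 in edgeR), and its log2 change was -0.27 without control library 2. Jak1, shared by both receptors, was at 975.8 and 944.1 CPM against 948.7 and 862.2 CPM and overlapped. Irf1, a transcription factor gene induced by interferon gamma, was at 265.1 and 267.6 CPM against 336.2 and 378.7 CPM (log2 change 0.42, SE 0.14, adjusted p = 0.404 in edgeR). Irf8, a factor also high in myeloid cells, was at 73.5 and 87.5 CPM against 109.5 and 112.0 CPM (log2 change 0.46, SE 0.16, adjusted p = 0.45 in edgeR). For Irf1 and Irf8 both knockout-labelled libraries were above both controls, and for Tyk2 and Jak2 both were below. Socs1, a feedback inhibitor, was at 2.88 and 1.29 CPM against 1.72 and 2.78 CPM, with overlap. The endosomal RNA sensor gene Tlr7 was at 1.397 and 3.18 CPM against 5.24 and 8.52 CPM (log2 change 1.59, SE 0.58, adjusted p = 0.464 in edgeR).

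Over the ligands, receptors, kinases, factors, sensors and inhibitors together, 33 genes were tested. edgeR called 0 of them at an adjusted p under 0.05, while 5 higher genes (15.2%) and 2 lower genes (6.06%) had an unadjusted p under 0.05, beside 4.48% and 5.17% of all genes. DESeq2 called 2 higher, Ifng and Ifngr2, and 0 lower, beside 1.85% and 1.36% of all genes. The groups did not overlap for 8 that were higher and 5 that were lower (24.2% and 15.2%, against 19.5% and 20.8% of all genes), and the median log2 fold change was 0.06.

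**Figure D5:**
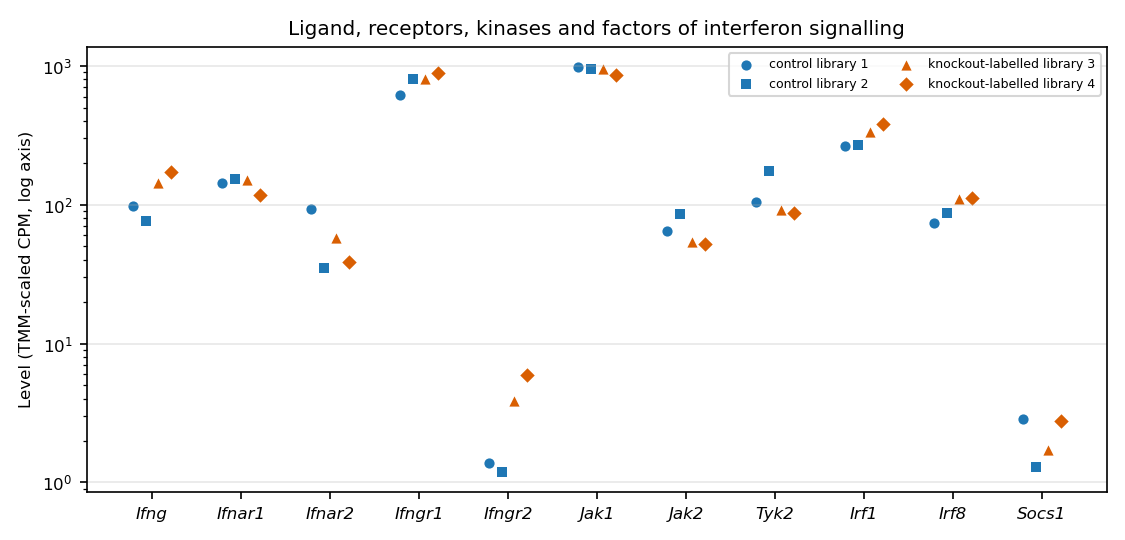
Level of the ligand gene Ifng and of receptor, kinase, factor and inhibitor genes of interferon signalling in each library, as TMM-scaled CPM on a log axis. The orange symbols of Ifng, Ifngr2, Irf1 and Irf8 lie above the blue ones, and those of Tyk2 and Jak2 lie below.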

How the data were processed

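RNA of 4 ILC1 libraries was sequenced after low-input amplification, per the labels' protocols. The deposited values are raw gene counts on mm10, made with STAR and featureCounts per the submitters' processing notes. The strand setting was not given in the sources used here, so reads of overlapping antisense genes cannot be told apart. Repeated lines (276) with identical counts were dropped. Low counts were removed by filterByExpr, TMM gave the scaling, and edgeR 4.0.16 gave the test (R 4.3.3, quasi-likelihood test, two-sided, 2 residual degrees of freedom), with Benjamini-Hochberg adjustment over 14863 genes and a threshold of 0.05. DESeq2 1.42.0 and limma 3.58.1 were alternatives. No molecular identifiers are named in the labels, so limits from counts cover counting error only. Exon lengths and coordinates came from GENCODE M21. The fit was tested on simulated data.

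The members and lists were chosen with earlier results of these data known. All 40 members were to be named, with full statistics for those at an unadjusted p under 0.05, those without overlap and with an absolute log2 fold change of at least 1, and the 5 highest per length. Pathway genes followed the same p rule, beside a fixed set of ligand, receptor, kinase and factor genes, and of each list of further targets the 4 with the smallest p were named. A gene of that set is not reported here.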

Additional observations from a re-analysis of the deposited data

How the results depend on the processing

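Alternatives were other scalings, filters, tests, the removal of genes of other cell types, ribosomal and mitochondrial genes, and the removal of each library. edgeR called 23 of 14863 genes tested. It called 563 of 23999 without a filter on low counts, and 49 of 12163 with at least 50 counts in 2 libraries. DESeq2 called 482 of 15030. edgeR called 0 when 473 genes (markers of other cells, ribosomal and mitochondrial genes) were left out together. Among the 23 calls, 4 were myeloid markers (Lyz2, Cybb, Fcgr4 and Csf1r), 1 a dendritic cell marker (H2-Ab1) and 1 a T cell marker (Trac). Their edgeR adjusted p-values were 0.0291 for H2-Ab1, 0.0467 for Lyz2 and 0.0489 for the others, so most lay just under the threshold. Whether the remaining calls came from other cells was not tested. Klra7, an NK cell marker, was also called (adjusted p = 0.0489 in edgeR), and NK cell markers were not among the genes left out. The sample labels number the libraries 1 to 4, but the count table's column names number them 1 and 2 in each group. With that number as a replicate block, added after seeing the data, edgeR called 0 genes and 0 members, with 1 residual degree of freedom, and Oasl1 became -0.0245. The deviations of same-numbered libraries correlated at 0.0839 across genes, and no label says that a number marks a shared animal or day. Without each library in turn the count ranged from 0 (knockout-labelled library 4) to 18 (knockout-labelled library 3), with 3 without control library 1 and 1 without control library 2. An arm of 1 library was assumed to vary like the other group. Of the 40 members edgeR called 0, where it called 23 of 14863 genes. Without a filter it called 3 members (Ifi27l2a higher, Ddx58 and Cmpk2 lower), where it called 563 of 23999 genes. DESeq2 called 1 member, where it called 482 of 15030 genes. At an unadjusted p under 0.05 in edgeR, 6 members differed (5% higher and 10% lower, beside 4.48% and 5.17% of all genes). With all 4 libraries kept, this number ranged from 6 to 9, and the share of all genes was not computed for each alternative. Without a filter, edgeR also called Ifng (adjusted p = 0.00268), Cxcl9, Slfn1 and Ms4a4c higher and Tyk2 lower. The cause of these differences was not tested. The type I median of -0.07 ranged from -0.20 to 0.0732 without 1 library, the type II median of 0.14 from -0.0336 to 0.29, and their difference of 0.21 from 0.12 to 0.30.

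Of 40 members, 21 kept their direction in every alternative. Oas1a became 0.0158 with limma-voom and Parp14 became -0.0008 with plain library totals. Samhd1 became -0.0408 with plain totals, -0.0145 without a filter and -0.0252 with the stricter filter. Without 1 library, the log2 fold change changed sign for 21 genes, with these ranges: Bst2 -0.0782 to 0.41, Gbp3 -0.11 to 0.39, Gbp7 -0.21 to 0.12, Ifi35 -0.21 to 0.0732, Ifi44 -1.15 to 0.42, Ifnar2 -0.95 to 0.45, Igtp -0.0812 to 0.29, Iigp1 -0.29 to 0.19, Irf7 -0.45 to 0.0573, Isg15 -0.0758 to 0.26, Isg20 -0.39 to 0.13, Ly6e -0.0435 to 0.23, Oas1a -0.43 to 0.42, Oasl1 -0.71 to 0.60, Parp14 -0.15 to 0.25, Rsad2 -2.12 to 0.34, Rtp4 -0.0758 to 0.12, Samhd1 -0.0953 to 0.0529, Socs1 -0.35 to 0.80, Stat2 -0.0833 to 0.32, Trim30a -0.0075 to 0.39. Precision is limited by 2 libraries a group.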
